A study of Mus musculus with 3 samples.

Results

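The regions described here are the CELF1 CLIP clusters of mouse chromosome 15, selected by the chromosome given for each cluster in the deposited lists. There were 3187 of them among 72222 in all, and they fell in 324 of the 8037 genes with a cluster. CELF1 (also CUGBP1) was crosslinked to the RNA it touched with UV light at 254 nm, pulled down with the monoclonal antibody 3B1, and the attached RNA was sequenced. The heart library came from ventricle and the muscle library from muscle, both of 16-week-old mice of the C57/BL6 background. The myoblast library came from C2C12, a cultured line of mouse muscle precursor cells. The same antibody served for all 3 libraries. The labels name neither the muscle nor the number of animals, and C2C12 is 1 line. Each group was 1 library, so no value has a replicate error. No difference below was tested, and each 95% interval is exact and covers counting error only.

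CELF1 is an RNA-binding protein with a preference for UGU and GU-rich RNA. In the nucleus it acts on alternative splicing from introns and exons, and in the cytoplasm it binds 3' UTRs and recruits deadenylases that shorten the life of the message. Its level falls in heart and skeletal muscle after birth, and it rises again in myotonic dystrophy. A cluster is a short stretch where crosslinked reads piled up beyond what the expression of the gene and the length of its unspliced RNA predict. A gene that is expressed weakly in a library can therefore fall short of a cluster there, and the lists carry no read numbers, so the depth behind each cluster is unknown. By the study's account the myoblast library had about as many mapped reads as the heart library, and the muscle library had fewer.

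The clusters of the 3 libraries met in 89 stretches on chromosome 15, in 50 genes, where 2 stretches listed under both Npcd and Cbx6 were counted once, under Cbx6. Of the 89, 66 lay in a 3' UTR, 21 in an intron and 2 elsewhere in a gene. Their median width was 42 nt and their range 1 to 97 nt. Some were narrow because clusters of 1 library can lie next to each other and cut a shared site into pieces. Others were narrow because the clusters met only at their edges. In Marchf6 and in Txn2 a stretch of 4 nt was the single common stretch of the gene. All 78 stretches of at least 20 nt held UGU, as did 80 (89.9%) of the 89. The sequences below are shown because CELF1 was found on them in all 3 sources, and because they lie in the genes that led the chromosome. Each is the window of up to 30 nt with the most UGU inside the common stretch, read from the NCBIM37 genome (mm9), 5' to 3' on the strand of the gene, with every UGU in capitals. Except in Ghr, no other common stretch of the same gene had a window with more UGU. The windows shown are thus richer in UGU than many common stretches. In Tnrc6b the window shown held 12 UGU, and those of its other common stretches held 2, 4 and 1.
Tnrc6b 3' UTR, chr15:80767419-80767448, plus strand: UGUGUGUGUGUGUGUGUGUGUGUUGUaagc
Rbfox2 3' UTR, chr15:76912846-76912875, minus strand: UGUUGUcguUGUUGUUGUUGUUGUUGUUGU
Tmem65 3' UTR, chr15:58615231-58615260, minus strand: UGUGUGUGUGUGUGUGUGUGUGUGUGUGUg
Cbx5 3' UTR, chr15:103024670-103024699, minus strand: gaggggaUGUGUgcauuccUGUuUGUGUgg
Rad21 3' UTR, chr15:51794161-51794190, minus strand: uaUGUauaacuuuucuaauaaaaguUGUGU
Ghr 3' UTR, chr15:3269656-3269685, minus strand: uaUGUuuuaaaucUGUGUugggagagcaug
Ext1 intron, chr15:53014614-53014642, minus strand: UGUGUcUGUcUGUauuuaUGUauuuaguu
Asap1 intron, chr15:64138919-64138948, minus strand: UGUGUaUGUGUGUGUGUGUcUGUcUGUGUa
Myh9 intron, chr15:77654596-77654625, minus strand: ccguccgUGUGUGUGUGUGUGUccuccUGU

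These windows range from an unbroken UG repeat in Tmem65 to scattered UGU in Rad21 and Ghr, with UGU triplets in Rbfox2. Over all clusters of the chromosome, UGU was searched on the strand of the gene, with overlapping matches counted. It occurred in 1683 of 1722 heart clusters (97.7%, 96.9 to 98.4), 1011 of 1033 muscle clusters (97.9%, 96.8 to 98.7) and 375 of 432 myoblast clusters (86.8%, 83.2 to 89.9). On the other chromosomes the shares were 98.3%, 98.4% and 86.3%. The myoblast clusters were narrower, with a median of 38.5 nt against 57 nt in heart and 55 nt in muscle. The longest unbroken UG run inside any cluster of the chromosome, 46 nt, lay in a heart cluster of the Tnrc6b 3' UTR. Tmem65 held a run of 36 nt that was inside a cluster of every library.

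Chromosome 15 held 1722 of the 42263 heart clusters (4.07%, 3.89 to 4.27), 1033 of the 24844 muscle clusters (4.16%, 3.91 to 4.41) and 432 of the 5115 myoblast clusters (8.45%, 7.70 to 9.24). Positions were what selected the clusters, so these shares are a description and were not tested. The myoblast share was 2.07 times the heart share, while on the 19 others compared the same ratio ran from 0.708 to 1.24 with a median of 0.971. Against muscle it was 2.03, and on those 19 it ran from 0.778 to 1.16. Chromosome Y, with 23 heart, 15 muscle and 0 myoblast clusters, was left out of these ranges. The 2 tissues took near-equal shares of chromosome 15, with a heart to muscle ratio of 0.980. Without Ext1, the gene with the most clusters, the myoblast share was 7.78% against 3.96% in heart and 4.10% in muscle, and without Asap1 as well it was 7.51% against 3.87% and 4.08%. Among 3' UTR clusters alone the ratio to heart was 1.61, and among intronic clusters alone it was 2.46. Neither the expression of these genes nor their copy number in C2C12 was measured in these files, and their part in the difference was not tested.

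**Figure D1:**
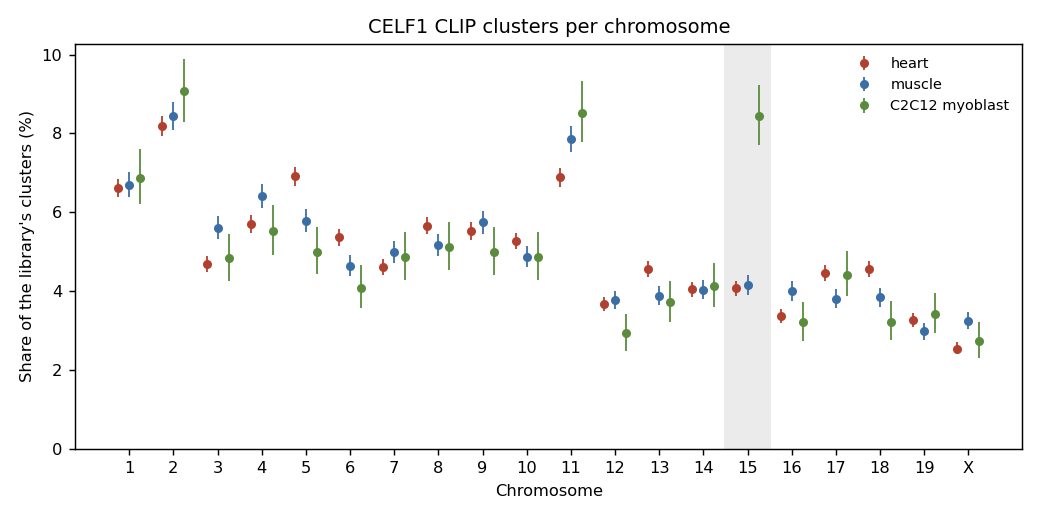
Share of each library's clusters (%, vertical axis) on each chromosome (horizontal axis); points are the 3 libraries and bars the exact 95% interval for counting error. On chromosome 15 (shaded) the myoblast point stands at 8.45% and the heart and muscle points at 4.07% and 4.16%.

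The higher myoblast share was spread along the chromosome. When it was divided into 10 Mb stretches, the myoblast share was above the heart share in all 11, by 1.21 to 4.29 times (median 1.70), where 48.4% of such stretches in the whole genome stood above. It was above the muscle share in 10 of 11, by 0.989 to 4.29 times, with a genome-wide figure of 43.7%. The stretch from 50 to 60 Mb held 93 myoblast clusters, 21.5% of those on the chromosome, with 179 in heart and 121 in muscle. Ext1 contributed 37 of the 93. Without Ext1 the stretch held 56, 128 and 105 clusters in myoblast, heart and muscle, and the myoblast share was 3.61 times the heart share. The longest interval with no bound gene was 9.61 Mb between Drosha and Cdh18, with 5 annotated protein-coding genes, followed by 5.87 Mb between Sybu and Trps1 with 4.

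**Figure D2:**
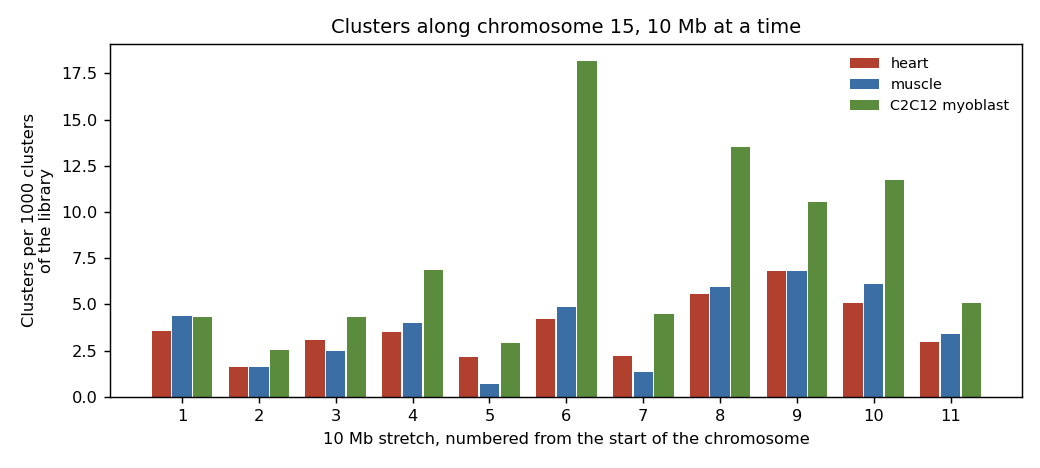
Clusters per 1000 clusters of the library (vertical axis) in each 10 Mb stretch of chromosome 15, numbered from its start (the last is shorter), with a bar for each library. The myoblast bar is the tallest in 10 of 11 stretches and reaches 18.2 in stretch 6, where heart stands at 4.24 and muscle at 4.87.

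Positions are those of mm9, counted from 1. Of 792 protein-coding genes annotated on the chromosome, 322 (40.7%) had a cluster in some library. Heart clusters lay in 262 genes (80.9% of the 324 bound), against 85.3% of bound genes in the whole genome. Muscle clusters lay in 211 (65.1%, against 66.5%). Myoblast clusters lay in 159 (49.1%, 43.5 to 54.7), against 34.3%, and on the other 19 chromosomes compared, Y left out, this share ran from 27.3% to 40.6%. All 3 libraries had clusters in 102 genes (31.5%, against 22.7%). Heart and muscle without myoblast shared 79 (24.4%, against 34.2%). Heart alone had 59 (18.2%, against 23.4%), muscle alone 27 (8.33%, against 8.05%) and myoblast alone 32 (9.88%, against 5.13%). The myoblast list was the shortest, so a gene was bound there less often on each of these 20 chromosomes, and the share on chromosome 15 was the highest of them.

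Most clusters lay in introns in heart (943, 54.8%) and in myoblast (289, 66.9%), and in 3' UTRs in muscle (564, 54.6%). The 3' UTR held 635 heart clusters (36.9%, against 32.8% on the other chromosomes) and 127 myoblast clusters (29.4%, against 34.4%). The muscle figure elsewhere was 49.9%. Coding exons held 98 heart, 52 muscle and 12 myoblast clusters, and 5' UTRs held 17, 9 and 0. Intronic myoblast clusters of chromosome 15 lay deep, at a median of 4844 nt from the nearest exon, where those of the other chromosomes stood at 2364 nt. Ext1 supplied 37 of these 289 clusters, all in 1 intron of 236830 nt, and the median was not taken without it. The medians for heart were 3832 nt here and 3663 nt elsewhere. Genes of the minus strand held 70.4% (65.8 to 74.6) of the myoblast clusters and 55.0% in both tissues, where the other chromosomes had 55.4% in myoblast, 49.7% in heart and 48.7% in muscle. Without Ext1, itself on the minus strand, the myoblast share here was 67.6%. Of the genes bound in myoblast, 57.9% were on that strand with Ext1 and 57.6% without it.

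Ext1 encodes a glycosyltransferase that builds the heparan sulfate chain of proteoglycans (Entrez 14042, chr15:52895593-53177714, minus strand). It held 51 clusters in heart, 16 in muscle and 37 in myoblast, and no gene of any chromosome had more in the myoblast library. In heart it ranked 49 and in muscle 212. All of these clusters lay in intron 1 of 236830 nt, and none in its 3' UTR of 4626 nt or its coding exons. Per 100 kb of the gene this was 18.1 clusters in heart, 5.67 in muscle and 13.1 in myoblast. The Ext1 share of the myoblast library was 5.99 times its heart share (3.82 to 9.33) and 11.2 times its muscle share (6.10 to 21.6). The clusters were dispersed over the intron, from 19.1 to 238 kb from the start of the gene in myoblast, 9.01 to 197 kb in heart and 12.3 to 163 kb in muscle. Of the 37 myoblast clusters, 5 met clusters of both tissues and 21 met neither, as did 269 of all 432 on the chromosome. Of the 16 muscle clusters, 1 met neither other library. The Ext1 window shown above is from 1 of the 5 common stretches of the gene.

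Asap1, which encodes a GTPase-activating protein for Arf proteins at adhesion sites (Entrez 13196, chr15:63920103-64214481, minus strand), held 37 clusters in heart, 5 in muscle and 15 in myoblast. It ranked 6 among all genes of the myoblast library. Its intron 3, 103792 nt long, held 22, 4 and 10 of the clusters. The Asap1 share of the myoblast library was 3.35 times that of heart (1.71 to 6.25) and 14.6 times that of muscle (5.03 to 51.2). Muscle stood low here although 3 of its 5 clusters met clusters of both other libraries.

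Zfpm2 encodes FOG2, a cofactor of GATA factors that is required for heart development (Entrez 22762, chr15:40486588-40936138, plus strand). It held 49 clusters in heart, 0 in muscle and 7 in myoblast, all intronic, with 30 of the heart clusters and 4 of the myoblast clusters in its intron 5 of 141254 nt. Of the 7 myoblast clusters, 5 met a heart cluster. Among the 15 genes that led heart, Zfpm2 was the single one with 0 clusters in muscle.

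**Figure D3:**
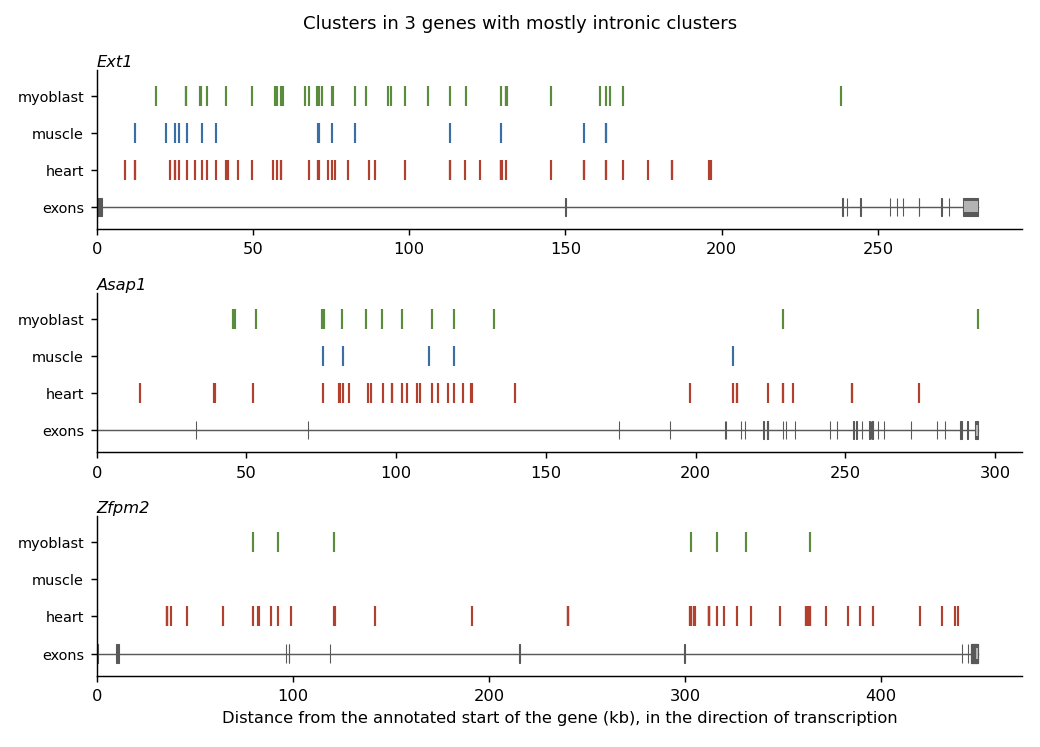
Position of every cluster (vertical ticks, a row for each library) along Ext1, Asap1 and Zfpm2, with annotated exons in dark grey and 3' UTRs in light grey; the horizontal axis is distance from the start of the gene in kb. The clusters are scattered through long introns, the muscle row of Zfpm2 is empty and that of Asap1 holds 5 ticks.

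Tnrc6b, whose product joins Argonaute proteins to deadenylases in microRNA silencing (Entrez 213988, chr15:80590016-80771516, plus strand), held 45 clusters in heart, 45 in muscle and 6 in myoblast. It has a 3' UTR of 11610 nt, which contained 35, 31 and 5 of them. Per kb of 3' UTR this was 3.01 clusters in heart, 2.67 in muscle and 0.431 in myoblast. Of the 6 myoblast clusters, 4 met clusters of both tissues, among them the UG repeat shown above. A further 4 heart and 3 muscle clusters assigned to Tnrc6b lay before its annotated start.

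Rbfox2 encodes a splicing regulator of the Fox family that binds GCAUG (Entrez 93686, chr15:76909420-77137483, minus strand). It held 37 clusters in heart, 23 in muscle and 9 in myoblast, of which 18, 11 and 2 lay in the 3' UTR. Of the 9 myoblast clusters, 7 were intronic and 6 met no tissue cluster, near the shares of all myoblast clusters of the chromosome (66.9% and 62.3%).

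RNA-binding and RNA-processing genes had 18 of 20 listed members with a cluster, 17 of them in heart, 15 in muscle and 11 in myoblast. Their clusters numbered 178, 133 and 35. The 18 were 90%, against 40.7% of all protein-coding genes of the chromosome with a cluster in some library. That background holds for the members with a cluster in each list below. It does not hold for the counts by library. Beside those stand the shares of all 324 bound genes, 80.9% in heart, 65.1% in muscle and 49.1% in myoblast. The lists were drawn up with earlier results of these data known, so their shares are no measure of a class of genes. Besides Tnrc6b and Rbfox2, Ago2, the Argonaute protein that cuts microRNA targets, held 10 in heart, 5 in muscle and 3 in myoblast. Zfr, a zinc finger RNA-binding protein, held 14, 14 and 2. Larp4, which binds poly(A) tails, held 15, 11 and 3. Pcbp2, a poly(C)-binding protein, held 5, 11 and 3, with more clusters in muscle than in heart although the muscle list was shorter. Khdrbs3, a splicing regulator of the STAR family, held 11, 1 and 0.

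Chromatin and transcription genes had 29 of 33 listed members with a cluster, 25 in heart, 25 in muscle and 20 in myoblast, with 210, 128 and 63 clusters. Cbx5 encodes heterochromatin protein HP1 alpha (Entrez 12419, chr15:103021975-103070247, minus strand), and it held 26, 19 and 8, with 25, 19 and 6 in its 3' UTR of 8097 nt. Rad21, a subunit of cohesin, held 8 clusters in every library, and its 3' UTR took 7 of those in heart and in muscle and 4 of those in myoblast. Equal numbers in lists of unequal length made its myoblast share 8.26 times the heart share (2.70 to 25.3). Nipbl, which loads cohesin, held 13, 10 and 5. Mrtfa, a coactivator of serum response factor, held 2, 4 and 7. It was 1 of 39 of the 324 genes (with a background of 6.59% over all genes) with more clusters in the short myoblast list than in either tissue, and 7 of the 39 had a tissue cluster. Trps1, a GATA-type repressor, held 7, 17 and 6 with no common stretch, and its muscle share was 4.13 times its heart share (1.63 to 11.8).

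Cytoskeleton and adhesion genes were the listed group with the most myoblast clusters, 86 (19.9% of the 432 on the chromosome), against 216 of 1722 in heart and 93 of 1033 in muscle. Of 17 members with a cluster (21 were listed), 14 were bound in heart, 11 in muscle and 16 in myoblast. Myh9, the heavy chain of non-muscle myosin IIA, held 14, 7 and 9, and its common stretches fell both in its 3' UTR and in introns. Mtss1, which couples membrane curvature to actin, held 24, 15 and 10. Plec, the linker protein plectin, held 8, 8 and 7. Lima1, an actin-bundling protein, and Twf1, an actin monomer-binding protein, held 4 and 2 clusters in myoblast and 0 in both tissues. Rai14 held 1, 0 and 5. Trio, a guanine nucleotide exchange factor, held 28, 16 and 3, and its heart share was 1.13 times its myoblast share (0.349 to 5.81). Myo10, the myosin of filopodia, held 29, 15 and 7, and focal adhesion kinase (Ptk2) held 18, 11 and 5. Trappc9, a subunit of a vesicle tethering complex and a member of no list, held 28, 12 and 3, of which 26, 10 and 3 were intronic.

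Energy metabolism genes were the reverse, with 99 clusters in heart, 55 in muscle and 6 in myoblast (5.75%, 5.32% and 1.39% of the chromosome). Of 13 members with a cluster (19 were listed), 13 were bound in heart, 10 in muscle and 5 in myoblast. Oxct1, the mitochondrial enzyme that activates ketone bodies, held 25, 16 and 1, with 11 and 12 in the 3' UTR in heart and muscle. These are 6.98 and 7.62 clusters per kb of its 3' UTR, denser than in Tnrc6b. Pfkm, muscle phosphofructokinase, held 15, 18 and 0, of which 8 and 5 were in coding exons. Ppara, the nuclear receptor of fatty acid oxidation, held 25, 5 and 0, with 19 of the heart clusters intronic. Cpt1b, which lets long-chain fatty acids into mitochondria, held 5, 4 and 0. Not every member was low in myoblast. Srebf2 held 4, 1 and 2, and its myoblast share was 4.13 times its heart share (0.374 to 28.8). Slc25a17 held 2, 0 and 1, Cox14 2, 1 and 1, and Nadk2 5, 0 and 1.

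Growth signalling genes had 15 of 20 listed members with a cluster, 12 in heart, 9 in muscle and 7 in myoblast, with 111, 77 and 19 clusters. Ghr, the growth hormone receptor, held 40, 26 and 3, of which 30, 16 and 2 were intronic, and all 3 myoblast clusters met a tissue cluster. Lifr, the receptor for leukaemia inhibitory factor, held 21, 23 and 0, with 17 and 22 in its 3' UTR. Deptor, an inhibitor of mTOR, held 4, 8 and 5, and the 14-3-3 protein gene Ywhaz held 5, 4 and 6. Among the 4 ubiquitin ligase genes with a cluster, all were bound in both tissues and 3 in myoblast, with 58, 45 and 6 clusters. Marchf6, a ligase of the endoplasmic reticulum membrane, held 31, 26 and 1, with 17 and 17 in the 3' UTR and 9 and 8 in coding exons. Fbxo32, the muscle atrophy gene atrogin-1, held 9, 9 and 0.

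Channel and transporter genes had 6 of 14 members with a cluster (42.9%, against 40.7% of all protein-coding genes of the chromosome), namely 5 in heart, 5 in muscle and 4 in myoblast, with 61, 55 and 8 clusters. Ank, which acts in pyrophosphate export, held 39, 19 and 1, and 18 of the heart clusters lay in its intron 1 of 77151 nt. The list of extracellular matrix genes had 6 of 9 members with a cluster, 3 in heart, 3 in muscle and 4 in myoblast. Of their 55, 20 and 41 clusters, Ext1, the glycosyltransferase gene, held 51, 16 and 37. Immune and blood cell genes had 2 of 10 members with a cluster, 1 each in heart, and 0 in the other libraries. Keratin and Hoxc genes had 5 of 18, with 1, 5 and 2 clusters. None of the 9 listed keratin genes had a cluster, and 5 of the 9 Hoxc genes (55.6%) had 1 or more. Over all 324 bound genes the median number of clusters was 3 in heart, 1 in muscle and 0 in myoblast.

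**Figure D4:**
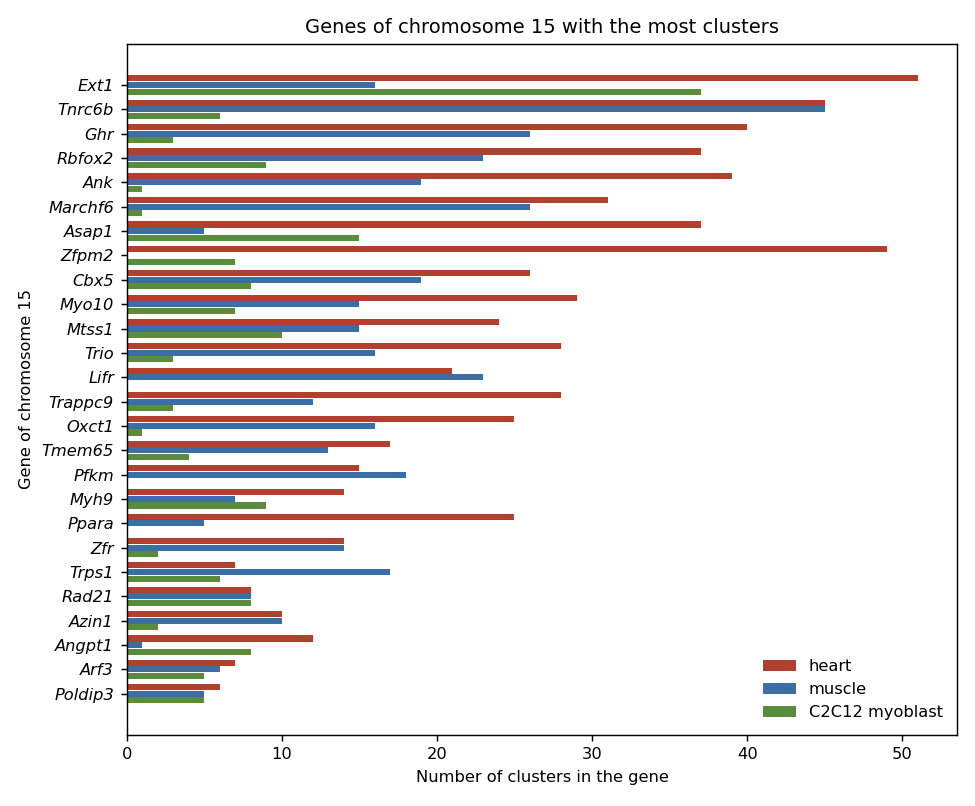
Number of clusters (horizontal axis) in the genes of chromosome 15 that lead a library or hold the most common stretches (vertical axis), with a bar for each library. Ext1 reaches 51, 16 and 37, Tnrc6b 45, 45 and 6, and the bars of Rad21 are equal at 8.

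Between the tissues, a gene was singled out where its share of one library was at least 3 times its share of the other, with at least 5 clusters in the pair and 3 put in place of 0. Of 155 genes with enough clusters, 13 stood higher in heart (8.39%, with 8.19% over all genes) and 13 in muscle (8.39%, with 8.04%), so chromosome 15 was near the background in both directions. The heart side, besides Zfpm2 and Asap1, held Pdzd2 with 22 against 4, the adhesion gene Parvb with 19 against 3, Fbxl7 with 17 against 3, and Pacsin2, a membrane-bending protein, with 18 against 1. Adcy6, a main cardiac adenylyl cyclase, had 14 against 2, Angpt1, the ligand of the endothelial receptor Tie2, 12 against 1, and Tcf20 8 against 1. The muscle side held, besides Trps1, Pcbp2 and Deptor, the lipid scramblase Ano6 with 3 in heart and 10 in muscle, and 5031439G07Rik with 3 and 8. Parvalbumin (Pvalb), the calcium buffer of fast fibres, had 1 and 5, a ratio of shares of 8.51 with an interval from 0.952 to 402. Rnf19a, Atp6v1c1 and 6030458C11Rik had 2 and 4 each. Their intervals, each 0.488 to 37.6, included 1, as did those of Adcy6, Fbxl7, Tcf20 and Deptor. The same held for Khdrbs3, AW549877, Cpq and Sbf1 on the heart side, and for Mrtfa, Egflam and Zfp641 on the muscle side. Most of the genes singled out in either direction thus had an interval that included 1. In tissue, fewer cells of a type and less RNA in each cell cannot be told apart.

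Between myoblast and heart, 37 of 132 genes stood higher in myoblast (28.0%, 20.6 to 36.5, with 13.8% over all genes) and 3 in heart (2.27%, with 1.79%). Between myoblast and muscle, 31 of 102 stood higher in myoblast (30.4%, 21.7 to 40.3, with 13.0% over all genes) and 3 in muscle (2.94%, with 3.33%). These counts share the higher myoblast share of the chromosome and are not separate from it. The 3 genes were the same in both pairs, namely Ank, Marchf6 and Oxct1, each with a single myoblast cluster. Their intervals all reached below 1, and for Ank the heart share was 4.72 times the myoblast share (0.799 to 191). With clusters within 50 nt merged, 1 gene was left in the pair with heart and 2 in the pair with muscle. The few genes on the tissue side follow partly from the rule. With 3 put in place of 0, no gene here with 0 myoblast clusters could reach 3 times. Examples are Ppara, with 25 in heart, and Lifr, with 23 in muscle. The counts of the 2 directions are therefore not comparable. By number of myoblast clusters, Ext1, Asap1, Mtss1, Myh9 and Rad21 led the genes higher in myoblast in both pairs. Angpt1 held 8 myoblast clusters against 12 in heart, a ratio of shares of 5.51 (1.95 to 14.7), and Ywhaz had 6 against 5, a ratio of 9.92 (2.52 to 41.1).

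Some genes were seen in a single library. In heart these were led by Cpne8, a copine, with 6 clusters, then Ncald, a neuronal calcium sensor, Spryd3 and Sybu, an adaptor of kinesin, with 5 each, and Emc2 with 4. In muscle Slc38a4, a transporter of neutral amino acids, held 8, Efcab6 4, and Abcd2, a peroxisomal fatty acid transporter, Yaf2 and the metalloprotease gene Adamts20 3 each. In myoblast Sema5a, an axon guidance gene, held 7, Lima1 and Basp1 4 each, and Racgap1, which acts in cytokinesis, and Atad2 3 each. A gene with 0 clusters in a list may still be bound at a level that gave no cluster.

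On the level of single sites, 611 of 1033 muscle clusters (59.1%, 56.1 to 62.2) shared at least 1 base with a heart cluster, against 52.5% on the other chromosomes. In the other direction the share was 35.0% of heart clusters, against 30.7%. Myoblast clusters met a heart cluster in 144 of 432 cases (33.3%, 28.9 to 38.0, against 33.9%) and a muscle cluster in 99 (22.9%, 19.0 to 27.2, against 25.2%). Seen from the tissues, 8.71% of heart clusters met a myoblast cluster, against 3.99%, and 10.1% of muscle clusters did, against 5.08%. So the myoblast clusters of chromosome 15 fell on tissue sites about as often as those elsewhere, while a tissue site here was met more often. Clusters that met neither other library were 61.4% in heart (67.7% on the other chromosomes), 39.1% in muscle (46.5%) and 62.3% in myoblast (61.1%).

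Of the 10 genes with the most common stretches, Tmem65, Arf3, Poldip3 and Azin1 were not among the leaders by number of clusters. Tmem65, a mitochondrial membrane protein gene (Entrez 74868, chr15:58613824-58655085, minus strand), had 7 pieces of common stretch in its 3' UTR, with 17 clusters in heart, 13 in muscle and 4 in myoblast. Arf3, a small GTPase of the Golgi, held 7, 6 and 5 clusters, and Poldip3, which acts in the translation of spliced mRNA, 6, 5 and 5, and every cluster of both genes was in the 3' UTR. Each of these 2 genes had 4 common stretches. Per kb of 3' UTR, Poldip3 held 3.15 clusters in heart, 2.63 in muscle and 2.63 in myoblast. In plain numbers the myoblast density was thus close to the tissue densities, unlike that of Tmem65, at 4.92, 3.79 and 1.14. The myoblast list was the shortest. As a share of the library, both Poldip3 and Tmem65 therefore stood higher in myoblast than in either tissue. Azin1, which counters antizyme in polyamine control, held 10, 10 and 2, with 3 common stretches, and both its myoblast clusters met clusters of both tissues. Positions were listed under both Npcd and Cbx6 for 10 clusters, whose gene is therefore uncertain.

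The labels were set against marker genes, none of which lies on chromosome 15. Of 8 cardiac markers, 7 had heart clusters (359 in all), 2 had muscle clusters (4) and 1 a myoblast cluster (1). Of 8 skeletal muscle markers, all had muscle clusters (102), 4 had heart clusters (6) and 0 had myoblast clusters. Of 8 myoblast markers, 3 had heart clusters (10), 3 had muscle clusters (6) and 3 had myoblast clusters (17). In the myoblast library Myf5, Myog, Cdh15, Des and Pax7 had 0. Of 5 endothelial markers, 5 had heart clusters (38), 3 had muscle clusters (19) and 0 had myoblast clusters. Fibroblast markers held 4, 4 and 1 clusters, and macrophage markers 2, 1 and 0. Angpt1, Zfpm2 and the other differences above were not tested against these markers.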

How the data were processed

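The authors collapsed identical reads, mapped them uniquely to mm9 with Bowtie and TopHat (the sources used here give no versions), and called clusters per library with a Poisson model of expression and gene length. The deposited lists hold positions, strand and Entrez identifier. A further deposited column, the score field, holds 1e-06 throughout and was not used.

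Identifiers were matched to GENCODE vM1 on NCBIM37 through RefSeq symbols (295) or synonyms (28), and 323 of 324 matched. Nadk2 did not, with 5, 0 and 1 clusters. Gene parts were taken at the midpoint of the cluster, with 3' UTR before coding exon, 5' UTR and intron. Clusters met where they shared at least 1 bp on the same strand. Intervals are exact Clopper-Pearson, and ratios of shares use the exact binomial interval of both counts. The code was tested on simulated data.

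Named genes were the 15 with the most clusters in heart and in muscle, the 10 in myoblast, the 10 with the most common stretches, the 5 leading each library alone, up to 10 a direction between heart and muscle, and the members of 10 lists by role. Those named between myoblast and tissue were chosen after their values were seen. The members and lists were chosen with earlier results of these data known. Alternatives were a stricter overlap, merged clusters, minimum widths, 2 clusters a gene, 3' UTR clusters only, other fold sizes and extended windows. Programs were Python 3.11.15, numpy 2.4.6, pandas 2.3.3, scipy 1.17.1 and matplotlib 3.10.9. A sequence window of 1 gene is not reported here.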

Additional observations from a re-analysis of the deposited data

How the results depend on the processing

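No paired analysis was possible because each group was 1 library. Leaving out clusters under 30 nt changed nothing, as the narrowest was 35 nt. Asking for at least 50% of both clusters to be shared lowered heart on muscle to 29.4%, heart on myoblast to 5.63%, muscle on heart to 49.1%, muscle on myoblast to 6.87%, myoblast on heart to 22.5% and myoblast on muscle to 16.4%. Leaving out clusters under 40 nt, chosen after seeing the data, gave 6.85% for heart on myoblast, 47.8% for myoblast on heart and 34.6% for myoblast on muscle, with 95 myoblast genes, 65 genes in all 3 libraries, UGU in 96.6% of myoblast clusters and 10.3% of the myoblast clusters on the chromosome. With at least 2 clusters a gene, myoblast had 77 genes and all 3 libraries 55. With 3' UTR clusters only, heart had 171 genes, myoblast 75 and all 3 libraries 51. Merging clusters within 50 nt moved the 3' UTR share to 31.5% in heart and 47.2% in muscle, the intron share to 59.3% and 44.4%, the muscle count of the fifth stretch to 11, and the genes higher in heart than myoblast to 1.

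At 2 times, 23 genes stood higher in heart than muscle, 26 the other way, and 5 in muscle over myoblast. At 5 times the counts were 4 for heart over muscle, 3 for muscle over heart, 0 for heart over myoblast, 20 for myoblast over heart, 1 for muscle over myoblast and 16 for myoblast over muscle. With at least 10 clusters in the pair they were 5 for muscle over heart, 18 for myoblast over heart and 12 for myoblast over muscle. Windows extended by 10 nt raised UGU to 98.8% in heart, 98.8% in muscle and 94.7% in myoblast. The share of clusters on the chromosome, under alternatives chosen after seeing the data, was 3.87% in heart and 7.51% in myoblast without Ext1 and Asap1. With 3' UTR clusters only it was 4.55%, 4.53% and 7.31% in heart, muscle and myoblast, and with intronic clusters only 3.80%, 3.66% and 9.35%. The myoblast share was the highest of the 3 in each of these. The cause was not tested for any of these shifts. The depth behind a cluster is unknown, so a gene with 0 clusters cannot be given an upper limit.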
